A study of Drosophila melanogaster with 3 samples.

Results

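The respiratory chain and the ATP synthase of mitochondria are built from subunits that are mostly encoded in the nucleus. The genes described here are the nuclear protein coding genes of the dm6 Ensembl/FlyBase annotation whose symbol starts with ND-, UQCR-, COX or ATPsyn, together with blw, SdhA, SdhB, SdhC and SdhD. The rule uses symbols and no measured value. They number 85 of the 13968 nuclear coding genes: 40 of complex I, 4 of complex II, 9 of complex III, 16 of complex IV and 16 of complex V, the ATP synthase. The question put to the data was whether the GFP-tagged protein CG10209 was found at the starts of these genes.

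Chromatin immunoprecipitation with sequencing (ChIP-seq) maps where on the genome a protein sits, by pulling down sheared chromatin with an antibody and sequencing the DNA that comes with it. The series holds 1 group of 3 biological replicates: whole Drosophila melanogaster embryos, 0 to 24 h old, both sexes pooled, from a single transgenic line carrying CG10209 with GFP at its C-terminal end. The antibody was against GFP, and the chromatin had been sonicated to fragments of 200 to 800 bp. There is no other condition, and no untagged line or mock pull-down was used here. Signal that the antibody gives at promoters without the tag was therefore not measured, so a peak stands for the authors' call and was not shown here to need the tagged protein. Every cell type of the embryo is in the sample, so occupancy in a few cells and weak occupancy in many cannot be told apart.

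Complex I oxidises NADH, complex II oxidises succinate and is also an enzyme of the citrate cycle, complex III passes electrons on to cytochrome c, and complex IV hands them to oxygen. The proton gradient that complexes I, III and IV build drives complex V to make ATP. In Drosophila, several of these subunits have a further gene copy whose symbol is the first one's plus L, and many such copies are known to be expressed mainly in testis. Sequence elements of 2 kinds have been described upstream of genes of this kind in flies: the DNA replication-related element (DRE), bound by the factor Dref, and the nuclear respiratory gene (NRG) element.

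The authors deposited 5 lists used here. Each replicate has 30000 regions and so do the pooled replicates, all with background regions among them. The last list holds 6307 peaks kept by IDR, the irreproducible discovery rate, a measure of how well replicates rank the same regions. Each region has the authors' signal value and a summit, the base of highest enrichment. Signal values span different ranges in the lists, so replicates are compared by rank within a list, where rank 1 is the highest signal, and by the deposited -log10 q. Replicates 1, 2 and 3 had 4296, 9183 and 9015 regions at a -log10 q of at least 2, which is a q of 0.01 or less. A promoter peak is an IDR peak with its summit within 500 bp of an annotated start of the gene, and 1 peak can count for several genes. Positions are given in bp from the nearest start of the gene, negative upstream.

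Of the 85 genes, 22 had a promoter peak, which is 25.9% (exact binomial 95% interval 17.0 to 36.5), against 21.5% of all coding genes. The share lies near that of all coding genes and its interval includes it. With each peak given to the gene of the nearest start alone, 14 of the 85 had one (16.5%), against 16.2% of coding genes. Replicates were left out in turn by keeping the peaks that top regions of both others overlapped. Without replicate 1 there were 15 genes (17.6%), against 17.7% of coding genes. Without replicate 2 there were 10 (11.8%), against 15.2%, and without replicate 3 there were 11 (12.9%), against 14.3%. By complex, the peaks fell on 10 of 40 genes of complex I (25%, interval 12.7 to 41.2), 1 of 4 of complex II (SdhC), 1 of 9 of complex III (UQCR-14), 5 of 16 of complex IV and 5 of 16 of complex V (31.2% each, interval 11.0 to 58.7). The interval of every complex includes the coding share, so none was distinguishable from coding genes at these numbers of genes. Complexes were not tested against one another.

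**Figure D1:**
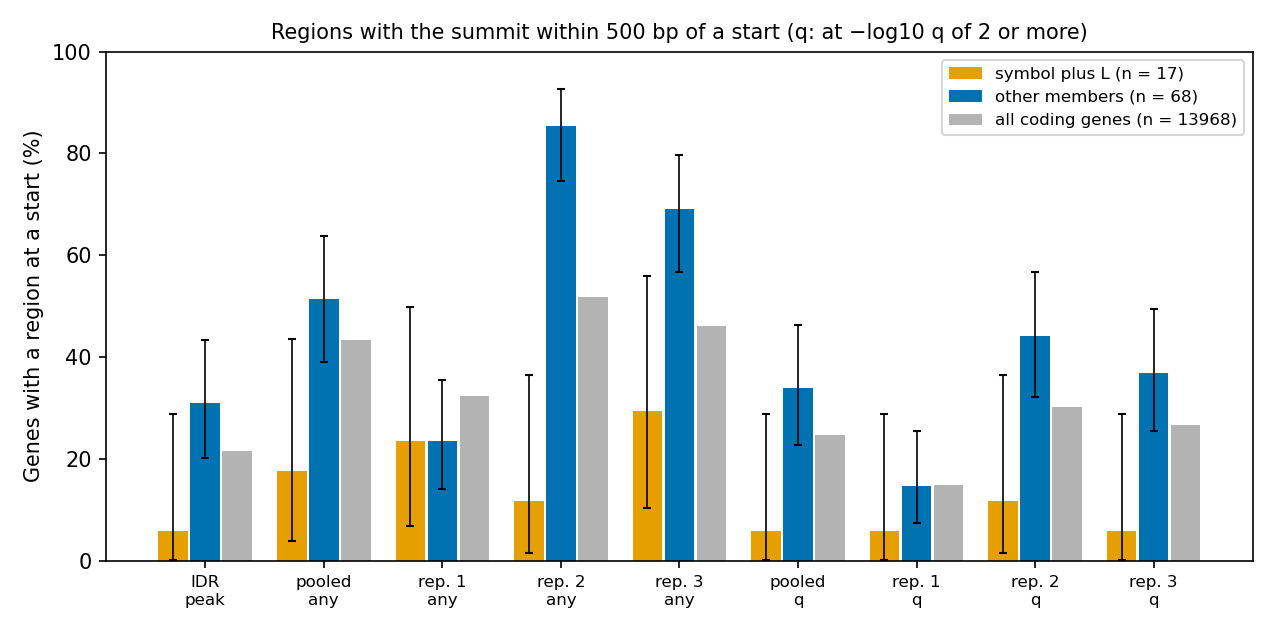
Share of genes (y axis, percent) with a region summit within 500 bp of a start in the IDR list, the pooled list and each replicate list (x axis; any region, then those at a -log10 q of at least 2, marked q), for the 17 genes with a symbol plus L, the other 68 genes and all coding genes, with exact binomial 95% intervals as error bars on the first 2 groups. In replicate 2, any region was found at 11.8% of the L copies and 85.3% of the other genes, against 51.8% of all coding genes. At a -log10 q of at least 2 these shares were 11.8%, 44.1% and 30.2%.

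The sequences under 8 of the 22 summits are given first, since some hold elements described for genes of this kind. Each is 201 bases, 100 on each side of the summit, read along the strand of the gene from the RefSeq copy of genome Release 6, which is dm6. Capitals mark a match to the DRE (TATCGATA) or to the NRG element (TTACATAA, TTACGTAA, TTATATAA or TTATGTAA), searched on both strands. The DRE is its own reverse complement. The first 6 hold the DRE, the window of ND-42 holds an NRG element alone, and that of ND-ASHI, which has the highest peak, holds neither. The windows are ND-23 at chr3R:15837192-15837392 (minus strand), ND-MNLL at chrX:7893816-7894016 (minus), ND-SGDH at chr3L:12138483-12138683 (minus), SdhC at chr3R:11210105-11210305 (minus), UQCR-14 at chrX:16286172-16286372 (plus), ATPsynE at chr3R:14326891-14327091 (plus), ND-42 at chr3R:22027546-22027746 (plus) and ND-ASHI at chrX:6679271-6679471 (minus).
ND-23: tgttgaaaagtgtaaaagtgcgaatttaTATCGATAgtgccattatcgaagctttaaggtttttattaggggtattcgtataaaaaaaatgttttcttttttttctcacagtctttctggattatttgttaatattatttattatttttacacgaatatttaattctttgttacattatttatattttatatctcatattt
ND-MNLL: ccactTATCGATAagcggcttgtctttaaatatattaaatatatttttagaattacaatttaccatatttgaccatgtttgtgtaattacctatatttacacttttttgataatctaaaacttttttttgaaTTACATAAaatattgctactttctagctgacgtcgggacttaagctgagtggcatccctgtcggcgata
ND-SGDH: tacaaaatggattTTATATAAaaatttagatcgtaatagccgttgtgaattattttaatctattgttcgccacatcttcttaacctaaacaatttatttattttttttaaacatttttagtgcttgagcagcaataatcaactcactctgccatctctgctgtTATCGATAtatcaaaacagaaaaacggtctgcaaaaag
SdhC: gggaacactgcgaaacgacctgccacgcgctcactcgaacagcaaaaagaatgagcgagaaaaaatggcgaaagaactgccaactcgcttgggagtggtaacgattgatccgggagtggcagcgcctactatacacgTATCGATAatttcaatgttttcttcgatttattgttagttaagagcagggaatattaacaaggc
UQCR-14: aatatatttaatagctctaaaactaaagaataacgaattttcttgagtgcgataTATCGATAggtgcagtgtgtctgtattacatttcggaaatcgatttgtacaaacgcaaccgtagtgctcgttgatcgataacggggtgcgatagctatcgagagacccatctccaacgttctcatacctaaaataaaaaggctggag
ATPsynE: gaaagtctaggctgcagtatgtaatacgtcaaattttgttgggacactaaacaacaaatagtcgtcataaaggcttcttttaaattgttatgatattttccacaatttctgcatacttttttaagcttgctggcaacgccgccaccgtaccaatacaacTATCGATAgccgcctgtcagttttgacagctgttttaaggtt
ND-42: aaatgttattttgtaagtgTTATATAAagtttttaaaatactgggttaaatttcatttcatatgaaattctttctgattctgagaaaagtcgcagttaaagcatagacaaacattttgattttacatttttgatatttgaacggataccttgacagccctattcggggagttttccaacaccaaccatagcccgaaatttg
ND-ASHI: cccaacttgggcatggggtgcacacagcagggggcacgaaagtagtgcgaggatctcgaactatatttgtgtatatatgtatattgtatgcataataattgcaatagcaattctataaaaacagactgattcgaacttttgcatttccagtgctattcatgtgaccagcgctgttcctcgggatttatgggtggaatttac

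The DRE was present in 6 of the 22 summit windows (27.3%, interval 10.7 to 50.2), against 206 of 3004 windows of coding genes with a promoter peak (6.86%). In the windows of UQCR-14, ATPsynE and ND-SGDH the gene's own start was the nearest start to the summit. In those of ND-23, ND-MNLL and SdhC another gene's start was nearer, so the motif there lies between or beside both genes. Among windows centred within 100 bp of the gene's own start, 3 of 12 of these genes had the DRE (25%), against 12.6% of coding genes. Farther out, 3 of 10 had it (30%), against 4.26%. The 3 were ND-23, ND-MNLL and SdhC, the windows where another gene's start was nearer. The share farther out thus cannot separate a DRE of these genes from one of their neighbours. No interval was computed for it, and the coding windows were not split by whose start was nearer. All these counts rest on a few windows and are taken as a description. The words of the motif say nothing of which factor was present.

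Promoters, taken from 250 bases before to 50 bases after the most upstream start whether or not a peak was there, held the same elements at shares close to those of coding genes. The DRE was in 9 of the 85 promoters (10.6%), against 9.36% of all coding promoters. In the promoters of the 22 genes with a peak it was in 3 (13.6%), against 12.9% of coding promoters with a peak. An NRG element was in 5 of 85 (5.88%), against 5.18%, and all 5 belonged to complex I: ND-30, ND-42, ND-49, ND-MNLL and ND-SGDH. Complex I holds 40 of the 85 genes, and its share was 12.5% (interval 4.19 to 26.8). That interval includes the coding share, and so do the intervals of the other complexes, which had 0. In summit windows the NRG element was found in 3 of 22 (13.6%, interval 2.91 to 34.9), those of ND-42, ND-MNLL and ND-SGDH, against 5.39% of coding windows. Both elements were thus in the windows of ND-MNLL and ND-SGDH. In ND-SGDH the centre of the NRG element lay at -82.5 bp and that of the DRE at 67.5 bp from the gene's start. The E-box CACGTG was in 4 of 85 promoters (4.71%), against 4.2%, and in 0 of 22 summit windows, against 2.26%. The word CACTGAGA, searched on both strands, was in 0 of 85 promoters, against 1.05%, and in 0 of 22 summit windows, against 1.33%. The base composition of the windows was close to that of other promoter peaks, with a median of 64.7% A and T in these genes, against 65.7% in coding genes.

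In complex I, the highest peak was at ND-ASHI (FBgn0029888, X, 6679202 to 6679527), an accessory subunit of the membrane arm, with a signal of 1044 in the pooled replicates. Its region had a signal of 357 in replicate 1, 271 in replicate 2 and 433 in replicate 3, and ranked 512, 597 and 447 in those lists. The replicates thus placed it at much the same height. The summit lay at -253 bp in an intron of Fum1, whose own start was 269 bp from it. Fum1 encodes fumarase, an enzyme of the citrate cycle, and the peak counts for both genes.

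ND-MWFE (FBgn0085468), a small accessory subunit that is needed in mammals to assemble the complex, had the next highest peak of complex I, with a signal of 905. It was 453 in replicate 1, 154 in replicate 2 and 297 in replicate 3, at ranks 307, 1713 and 909. Replicate 2 ranked it lowest and replicate 1 highest. The start of TppII, which encodes the protease tripeptidyl peptidase, was nearer to the summit, at 46 bp, than that of ND-MWFE. ND-42 (FBgn0019957, 3R, 22027424 to 22027867), another accessory subunit, had a signal of 647. No region of replicate 1 lay there, while replicate 2 had 168 at rank 1452 and replicate 3 had 217 at rank 1530. Its summit was at -63 bp, and its divergent neighbour Cchl, which encodes the enzyme that attaches heme to cytochrome c, had its start 166 bp away.

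The core subunits of complex I carry its flavin and iron-sulfur clusters. Of the 7 core subunits under an ND- symbol, 3 had a promoter peak: ND-51, ND-24 and ND-23. This list was written after the values had been seen. ND-51 (FBgn0031771, 2L, 6062602 to 6063045) holds the flavin that takes up electrons from NADH, and its peak had a signal of 494. Replicate 1 had 166, replicate 2 had 138 and replicate 3 had 172, at ranks 1772, 2031 and 2190, so all 3 ranked it alike. Its summit was at -67 bp. ND-24 (FBgn0030853), the partner of ND-51 at the entry of the electrons, had a signal of 465. Replicate 1 had no region there, replicate 2 had 98.3 at rank 3506 and replicate 3 had 215 at rank 1554. The summit was at 59 bp, in an exon of ND-24 outside its coding sequence, and 101 bp from the start of corolla, a gene of the synaptonemal complex.

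ND-23 (FBgn0017567), which passes electrons towards the quinone, had a signal of 411, with 142 in replicate 1, 110 in replicate 2 and 139 in replicate 3. Ranks of 2185, 2931 and 2978 again lay close together. Its summit was at -175 bp, and the start of spn-E, a helicase gene of the piRNA pathway, was nearer at 127 bp. The remaining accessory subunits with a peak were ND-SGDH, ND-B22, ND-MNLL and ND-B18, with signals of 376, 273, 249 and 212. ND-SGDH had the widest range of ranks among all 22, at 1429 in replicate 1, 20486 in replicate 2 and 2936 in replicate 3, and its -log10 q in replicate 2 was 0.496. A further IDR peak also lay within 500 bp of its start. The 3 of 7 core genes (42.9%, interval 9.90 to 81.6) and the 7 of 27 other genes of complex I without the L copies (25.9%, interval 11.1 to 46.3) both have intervals that include the 21.5% of coding genes. ND-13A and ND-18 had no pooled region.

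In complex II, SdhC was the gene with a peak. It encodes a membrane anchor of succinate dehydrogenase (FBgn0037873, 3R, 11209983 to 11210426), and the signal was 218. Replicate 1 had no region there, replicate 2 had 91.1 and replicate 3 had 74.6. The summit was at -356 bp, the farthest upstream of the 22, and 42 bp from the start of Tctp. SdhA, the flavoprotein, reached a -log10 q of 2 in replicate 2 alone. SdhB and SdhD had no pooled region within 500 bp.

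UQCR-14 (FBgn0030733, X, 16286050 to 16286493) was the gene of complex III with a peak. Its signal was 236, at 90.6 in replicate 2 and 86.1 in replicate 3, with no region in replicate 1. The summit was at -16 bp and lay in an exon of the overlapping gene CG32576 outside coding sequence, with no other gene's start in the window. UQCR-11 and UQCR-11L had no pooled region.

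In complex IV, the peaks at COX5A, COX5B, COX6B, COX7B and COX7AL2 had signals of 445, 388, 355, 337 and 242. Subunits of these families surround the catalytic core, whose own subunits are encoded in mitochondrial DNA. At COX5A, replicate 1 had no region, replicate 2 had 84.2 at rank 4488 and replicate 3 had 172 at rank 2188. At COX5B the values were 129, 128 and 124, at ranks 2474, 2301 and 3454, so replicate 3 ranked it lowest. COX6B had no region in replicate 1, 89.4 in replicate 2 and 144 in replicate 3. COX7B had 108, 94.4 and 125 in the 3 replicates, at ranks 3048, 3767 and 3397. In 3 of these 5 genes another gene's start was nearer: glo at 44 bp for COX5A, IFT52 at 42 bp for COX5B and, for COX6B, a start at 36 bp. COX5BL and COX6AL had no pooled region.

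In complex V, the highest peak was at blw (FBgn0011211), which encodes the alpha subunit of the catalytic head, with a signal of 932. Its region had 367 in replicate 1, 230 in replicate 2 and 332 in replicate 3, at ranks 482, 841 and 738. All 3 replicates placed it high in their lists. The summit was intergenic at -128 bp, and no other gene had a start in the window. ATPsynE (FBgn0038224, 3R, 14326922 to 14327064), a subunit of the membrane part that in yeast and mammals helps to hold dimers together, had a signal of 533. There was no region in replicate 1, a signal of 114 at rank 2774 in replicate 2 and of 190 at rank 1879 in replicate 3. Its summit lay at 44 bp, inside an exon of the gene outside its coding sequence.

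ATPsyngamma, the central shaft, had a signal of 286, with no region in replicate 1. ATPsynC, which forms the rotor ring in the membrane (FBgn0039830), had 276, with 111 in replicate 1, 113 in replicate 2 and 69 in replicate 3. ATPsynCF6, a part of the outer stalk, had 255, with 122, 80.8 and 68.5 in replicates 1, 2 and 3. For both, replicate 3 ranked the region lowest, at 7318 for ATPsynC and 7388 for ATPsynCF6. The start of Sec13 was nearer to the summit at ATPsynCF6, at 35 bp. ATPsynB and ATPsynCF6L had no pooled region.

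Heights of the 22 peaks were not above those of other promoter peaks. Their median signal was 365, against 420 over the 3004 coding genes with one, and their median rank in the IDR list was 2870, against 2356.5. The highest, ND-ASHI, ranked 511 of 6307. Each of the 22 had the same rank in the IDR list as in the pooled list, down to 5722 at ND-B18. The IDR list thus held every pooled region down to that rank, and a peak in it need not rank high in each replicate.

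**Figure D2:**
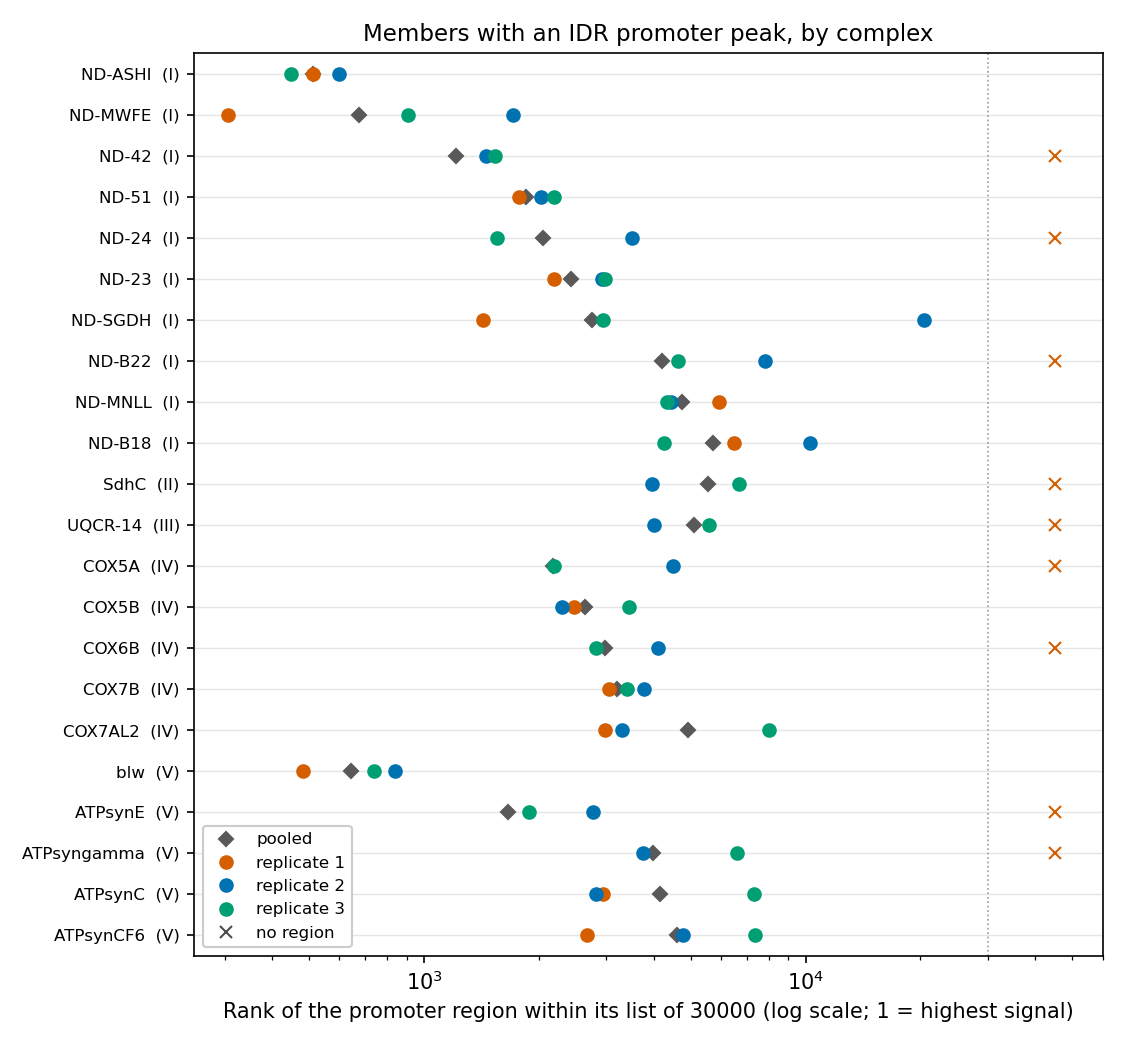
Rank of the promoter region (x axis, log scale, 1 is the highest signal of a list) of the 22 genes with an IDR promoter peak, by complex, in the pooled list and in each replicate. Crosses mark a replicate with no region within 500 bp, all 9 of them in replicate 1, and ND-SGDH at rank 20486 in replicate 2 stands far from its other ranks.

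Replicate 1 held the fewest of these peaks. No region of replicate 1 lay at 9 of the 22 genes: ND-24, ND-42, ND-B22, SdhC, UQCR-14, COX5A, COX6B, ATPsynE and ATPsyngamma. A region of replicate 1 overlapped 13 of the 22 peaks (59.1%), against 78.7% over coding genes with a promoter peak. For its 6307 regions of highest signal the count was 12 (54.5%, interval 32.2 to 75.6), against 74.5%. Replicate 2 had a top region at 19 of the 22 (86.4%), against 88.1%, and any region at 22, against 99.4%. Replicate 3 had a top region at 18 (81.8%), against 91.9%, and any region at 22, against 99.6%. All 3 replicates had a top region at 9 of the 22 (40.9%, interval 20.7 to 63.6), against 64.1%. Replicate 1 also had the fewest regions at a -log10 q of 2 or more, and the part of this in the lower overlap was not tested.

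Over all 85 genes, whether or not a peak passed IDR, a region of replicate 1 lay within 500 bp of 20 (23.5%, interval 15 to 34.0), against 32.3% of coding genes. In replicate 2 there were 60 (70.6%, interval 59.7 to 80.0), against 51.8%, and in replicate 3 there were 52 (61.2%, interval 49.99 to 71.6), against 46.1%. The coding share lay under the interval in replicates 2 and 3 and inside it in replicate 1. With a -log10 q of at least 2 the counts were 11 in replicate 1 (12.9%), against 14.9%, 32 in replicate 2 (37.6%), against 30.2%, and 26 in replicate 3 (30.6%), against 26.7%. The excess in replicates 2 and 3 thus lay largely in regions of low rank, which the lists hold together with background. The pooled list had a region at 38 (44.7%), against 43.4%, and one at a -log10 q of 2 or more at 24 (28.2%), against 24.6%.

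By gene, 10 had a region at a -log10 q of 2 or more in all 3 replicates: ND-23, ND-51, ND-ASHI, ND-MWFE, COX5B, COX7AL2, COX7B, ATPsynC, ATPsynCF6 and blw. That is 11.8% of the 85, against 13.8% of coding genes. In 11 genes (12.9%, against 9.67% of coding genes) such a region was found in replicates 2 and 3 but not in replicate 1, among them ND-24, ND-42, COX5A, ATPsynE and, without an IDR peak, COX8. At COX8 the highest region had its summit at -35 bp in replicate 2 and at -347 bp in replicate 3, and no pooled region was there. A further 11 had it in replicate 2 alone (12.9%, against 6.62%), 4 in replicate 3 alone (4.71%, against 2.68%) and 1, ND-SGDH, in replicates 1 and 3 (1.18%, against 0.616%). The other 48 had none (56.5%, against 66.1%). Over genes with a region in both lists, Spearman's rho of the ranks, given as a description, was 0.88 between replicates 1 and 3 (17 genes), against 0.91 over 3511 coding genes. It was 0.73 between replicates 2 and 3 (45 genes), against 0.85 over 5608, and 0.70 between replicates 1 and 2 (15 genes), against 0.85 over 3399. Where replicates 1 and 3 both had a region, they thus placed the genes in a similar order, though the ranks themselves could lie apart. COX7AL2, for example, ranked 2986 in replicate 1 and 7999 in replicate 3. Each rho rests on its own set of genes. Over the replicates with a region, summits at the 22 genes had a median range of 40 bp, against 42 bp over coding genes. It ran from 1 bp at COX6B to 203 bp at SdhC. A range over 2 replicates tends to be smaller than one over 3, and all 3 had a region at 13 of the 22. Replicate 1 overlapped 59.1% of these peaks, against 78.7% over coding genes, so the 2 medians do not compare like with like.

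The highest pooled regions at genes without an IDR peak were at ATPsynbeta, ATPsynF, ND-13B, COX4 and ATPsynO. ATPsynbeta, the beta subunit, which carries the catalytic sites, had a pooled signal of 177 and a -log10 q of 2.60. The pooled summit lay at -422 bp, and the highest region of replicate 3 lay at -424 bp, with 54.5 at rank 9645. In replicate 2 the highest region lay elsewhere, with its summit at 27 bp and a signal of 104 at rank 3243. Replicate 1 had no region there. ATPsynF had a pooled signal of 168 and a -log10 q of 2.25, and ND-13B had 160 and 1.98. COX4 and ATPsynO had 134 and 131. None of these 5 genes had a region of replicate 1, so the alpha and beta subunits both had a region in replicates 2 and 3, and of this pair blw alone had one in replicate 1. The IDR peaks reach down to a signal of 195.

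**Figure D3:**
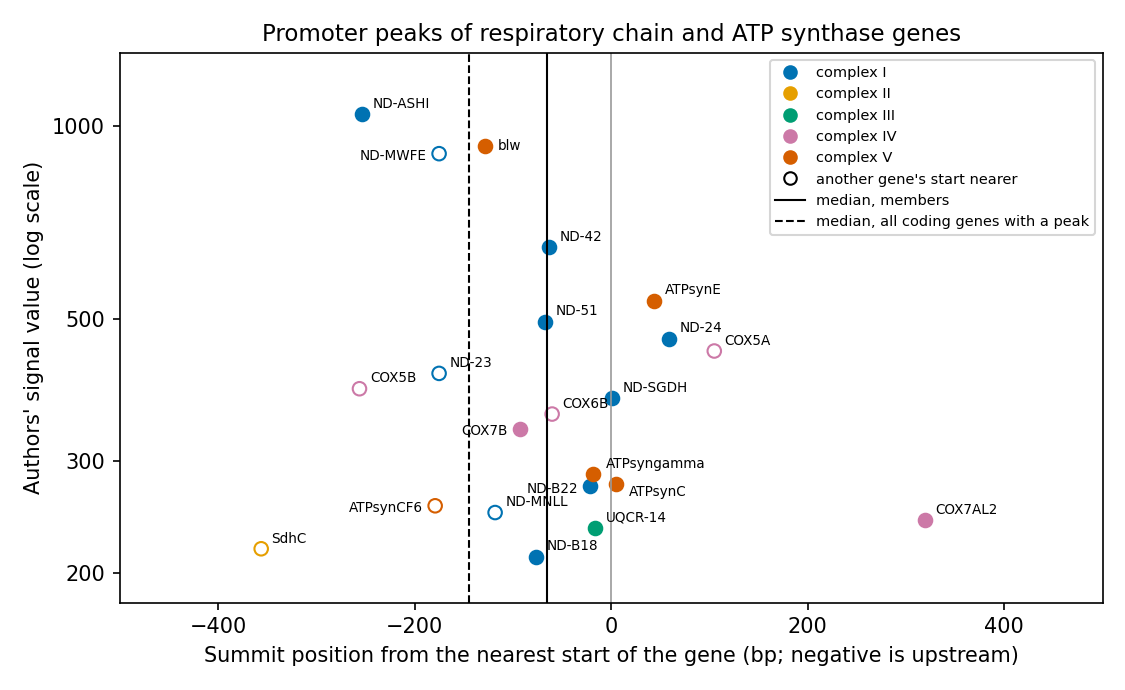
Signal value of the IDR promoter peak (y axis, log scale) against the position of its summit from the nearest start of the gene (x axis, bp) for the 22 genes, with colours for the complexes and open circles where another gene's start is nearer. The median position of these genes is -65 bp, drawn as a solid line, and that of all coding genes with a peak is -145 bp, drawn as a dashed line.

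Summits had a median position closer to the start than over all coding genes. The median position was -65 bp (quartiles -163 and -3.25), against -145 bp over coding genes (quartiles -238 and -63). Upstream summits made up 16 of 22 (72.7%), against 88% over coding genes. For the 14 genes whose own start was the nearest, the median was -19.5 bp. That set was chosen for nearness, and no such median was computed over coding genes. Positions are from the nearest of a gene's starts, so more starts can shorten them. More than 1 start was annotated at 14 of the 22 genes, not the same 14, against 1363 of the 3004 coding genes. The part of this in the closer median was not tested. The summit was in intergenic sequence at 10 genes, in an exon outside coding sequence at 9 and in an intron at 3, with 0 in coding sequence. These places were not counted over all coding genes. The farthest downstream was COX7AL2, at 319 bp.

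Many of these genes share their promoter region with another gene. At 18 of the 22, another gene, coding or not, had a start within 500 bp of the summit. That share was not counted over coding genes with a peak, so it cannot be called high or low. The gene's own start was the nearest at 14 (63.6%), against 75.2% of coding genes with a peak. A divergent neighbour, a coding gene on the other strand with its start at most 500 bp upstream, was present at 39 of the 85 genes (45.9%), against 27.3% of all coding genes. Among those 39, 17 had a promoter peak (43.6%, interval 27.8 to 60.4), against 40.3% of coding genes with such a neighbour. Among the other 46, 5 had one (10.9%, interval 3.62 to 23.6), against 14.4%. Within each class the share was thus near that of coding genes in general. The 5 were ND-B22, UQCR-14, COX7AL2, ATPsynC and blw, which have no divergent coding start next to them.

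Genes with a symbol equal to another one plus L numbered 17: ND-20L, ND-24L, ND-49L, ND-51L1, ND-51L2, ND-B14.5AL, UQCR-11L, UQCR-14L, UQCR-6.4L, COX4L, COX5BL, COX7AL, COX7AL2, COX7CL, ATPsynCF6L, ATPsynGL and ATPsynbetaL. A promoter peak was present at 1 of them, COX7AL2 (5.88%, interval 0.149 to 28.7), against 21 of the other 68 (30.9%, interval 20.2 to 43.3) and 21.5% of coding genes, a share that lies inside both intervals. In replicate 2, 2 of the 17 had any region (11.8%, interval 1.46 to 36.4), against 58 of 68 (85.3%, interval 74.6 to 92.7) and 51.8% of coding genes. In replicate 3 there were 5 (29.4%, interval 10.3 to 56.0), against 47 (69.1%, interval 56.7 to 79.8) and 46.1%. In replicate 1 the shares of any region were equal, at 4 of 17 and 16 of 68 (23.5% each), against 32.3% of coding genes. With a -log10 q of at least 2, replicate 1 had 1 of 17 (5.88%), against 10 of 68 (14.7%) and 14.9%. The intervals of L copies and other genes were apart for any region of replicates 2 and 3, lists that include background regions. With a -log10 q of at least 2 they overlapped in both. Replicate 2 then had 11.8% (interval 1.46 to 36.4), against 44.1% (interval 32.1 to 56.7) and 30.2% of coding genes. Replicate 3 had 5.88% (interval 0.149 to 28.7), against 36.8% (interval 25.4 to 49.3) and 26.7%. For any pooled region they also overlapped, at 17.6% (interval 3.80 to 43.4), against 51.5% (interval 39.0 to 63.8) and 43.4%. Counting every symbol with an added L, also where the name before it is no symbol among the 85, 1 of 21 had a promoter peak (4.76%), against 21 of 64 (32.8%).

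No region in any of the 5 lists lay within 500 bp of 15 of the 85 genes (17.6%), against 36% of coding genes, and 12 of these 15 were L copies. COX6AL2 and COX6CL, which also end in an added L, bring this to 14 of 15, and the last is ND-B14.7. A divergent coding start was present at 2 of the 17 L copies (11.8%). The 15 genes they are named after had a promoter peak at 5 (33.3%), a region of replicate 1 at 5 (33.3%), of replicate 2 at 13 and of replicate 3 at 13 (86.7% each), against 21.5%, 32.3%, 51.8% and 46.1% of coding genes in the same order. ND-51L1 and ND-51L2 had no region in any list, against a signal of 494 at ND-51, and ND-24L had none, against 465 at ND-24. COX7AL2 had 242, against a pooled signal of 84.6 and no IDR peak at COX7A. The region of COX7AL2 had a signal of 110 in replicate 1, 102 in replicate 2 and 64.1 in replicate 3. UQCR-6.4L had a region in all 3 replicates, at ranks 5992, 5682 and 11090, and no IDR peak. Their summits lay at -480, -393 and -500 bp, towards the edge of the window, while the pooled summit lay at 240 bp. The -log10 q was 1.19, 3.36 and 1.40 in replicates 1, 2 and 3.

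Of the other genes of the pathway, 44 symbols were listed and 40 were found in the annotation. A promoter peak was present at 14 of the 40 (35%, interval 20.6 to 51.7), against 21.5% of all coding genes, which the interval includes. With each peak given to the nearest start alone, 8 of the 40 had one (20%), against 16.2%. Electron carriers and subunits under other symbols had a peak at 5 of 9. The highest was Cyt-c-d, a cytochrome c gene, with a signal of 1795, and levy, ox, cype and Cyt-c-p had 389, 286, 275 and 273. The summit at Cyt-c-d was 375 bp downstream of its start, and a start of CG31808 was nearer. Another gene's start was nearer also at levy (wmd), ox (Dgkepsilon) and cype. Enzymes of the citrate cycle and of pyruvate dehydrogenase had one at 5 of 10: Idh3g with 1523, Fum1 with the peak it shares with ND-ASHI, mAcon1, where another start was nearer, with 636, Pdhb with 632 and kdn, citrate synthase, with 212. Assembly factors had one at 2 of 6, CIA30 of complex I with 1674 and Cox17, a copper carrier for complex IV, with 777. Genes of mitochondrial DNA expression had one at 1 of 6, mtSSB with 597. Nuclear regulators had one at 1 of 4, Dref, which encodes the factor that binds the DRE, with 858 and a start of RpL13 nearer to the summit. The carriers and channel sesB, Ant2 and porin had 0 of 3, and the complex II copies SdhAL and SdhBL had 0 of 2.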

How the data were processed

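Only the dm6 lists were used. The authors deposited, per the text files that accompany them, regions called for each replicate and for the pooled replicates against 1 common control, with 30000 regions in each list, and a list of peaks kept by IDR. The deposited signal value of each region and the deposited −log10 q are used as the authors give them, and all 6307 IDR peaks are identical to pooled regions. What aligner and caller were run, and at what IDR threshold, is not given in the sources used here. Without read counts in the lists, depth is unknown.

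Summits were set against starts of the Ensembl 115 annotation with Python 3.11.15 (numpy 2.4.6, scipy 1.17.1, matplotlib 3.10.9), and the counting was checked on simulated data. Where several regions fell within 500 bp, the one of highest signal was kept. With 1 group there is no test between conditions, and genes are not replicates, so counts stand beside the share of all coding genes. Intervals are exact binomial (Clopper-Pearson) at 95% and cover counting error only. The genes, lists and motifs were chosen with earlier results of these data known. Genes named are all with an IDR promoter peak, the 5 without one that have the highest pooled signal, per complex the first 2 by alphabet with no pooled region, the L copies, and other pathway genes with a peak. SdhAF3, SdhAF4, Nc73EF and tam matched no annotated symbol. Alternatives were other windows, a higher signal or −log10 q, other ways to assign or overlap peaks, and omission of each replicate. Protein sequences were not used here.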

Additional observations from a re-analysis of the deposited data

How the results depend on the processing

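The 22 genes with a promoter peak became 12 for the 3153 peaks of highest signal, 14 for the nearest start alone and 9 for peaks under a top region of all 3 replicates. Omitting a replicate gave 10 to 15, the lowest without replicate 2. For the first 3 settings the shares were 14.1%, 16.5% and 10.6% of the 85, against 13.5%, 16.2% and 13.8% of coding genes. With a window of 250 bp the share was 21.2%, against 16.8%, and with 1000 bp it was 29.4%, against 25.1%. With a peak required to overlap the start it was 20%, against 13.5%. Complex I (10 genes) had 5 under a top region of all 3 replicates and 5 to 7 with a replicate omitted. Complex II (1) had 0 with a window of 250 bp, with the peaks of highest signal, with the nearest start alone, with a peak required to overlap the start, under all 3 replicates and with any replicate omitted. Complex III (1) had 2 with a window of 1000 bp, 0 with the peaks of highest signal, 0 under all 3 replicates, and 0 to 1 with a replicate omitted. Complex IV (5) had 3 with 250 bp, 3 with the highest signal, 2 with the nearest start alone, 3 with overlap of the start, 3 under all 3 replicates, and 3 to 5 with a replicate omitted. Complex V (5) had 2 with the highest signal, 1 under all 3 replicates and 1 to 3 with a replicate omitted. These settings keep fewer peaks or other windows by construction. The other 45 recomputed values moved by less than 1.5 times, or less than the spread of positions. A −log10 q of 5 was not run, since no region reaches it, and 3 was used instead, a choice made after seeing the data. It gave 22 genes in the pooled list, and 8, 26 and 21 in replicates 1, 2 and 3. Omission of a replicate was done by overlap with top regions of both others, since IDR could not be rerun. No paired analysis was possible because there is 1 group. The lists give no read depth, so a gene without a region is one where none was listed, not one shown to be free of the protein.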

Other observations

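A search of all words of 7 letters in the 22 summit windows, made after the windows had been seen, gave GCTGTCA, searched on both strands, as the word with the highest ratio to coding windows. It was in 7 of 22 windows, those of ND-42, ND-B18, ND-B22, COX5A, COX6B, COX7AL2 and ATPsynE (31.8%), against 120 of 3004 coding windows (3.99%). The word was 1 of 62 found in at least 5 of the 22 windows, and its ratio was 7.97, against 6.83 for the next, so a word picked this way has a high ratio by choice and no test was made. In promoters of genes without an IDR peak, whose windows did not choose the word, it was in 8 of 63 (12.7%), against 4.10% of coding promoters without one. Of these 8, 4 were L copies (COX4L, ND-B14.5AL, ATPsynGL and ATPsynbetaL) and 4 were not (COX7A, ND-19, ND-75 and SdhD). Without the L copies the share was 4 of 47 (8.51%). No interval was computed for these small counts. In promoters of the 22 genes themselves the word was in 2, ND-42 and COX6B (9.09%), against 4.63%.

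Genes with more than 1 annotated start had a promoter peak more often: 14 of 34 of the respiratory chain and ATP synthase genes (41.2%), against 36.8% of such coding genes. With 1 start the counts were 8 of 51 (15.7%), against 16%. In both classes the share was near that of coding genes.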
